A study of Mus musculus with 67 samples.

Results

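Lyz1, Mmp7, Ang4, Itln1, Mptx1 and Mptx2 are genes that mark Paneth cells other than by the alpha-defensins, and they were taken by name from the deposited bulk RNA-seq table of mouse intestinal organoids and crypts. All 6 of the 6 named genes were present among the 29579 genes of the table, and all 6 passed the filter on low values, a mean TPM of 1 or more across a fit, in each comparison. The series holds 67 libraries, of which 49 are from organoids in 10 culture conditions and 18 are from crypts in 9 groups. Organoids were grown from crypts of the proximal small intestine of mice 6 to 12 weeks old. The study used C57BL/6 mice, Lgr5-EGFP-IRES-creERT2 mice and the cross of the latter with Rosa26-loxp-STOP-loxp-tdTomato mice, and the sources used here do not tie each organoid library to one of them. The ENR medium (7 libraries) held R-Spondin 1 at 500 ng/mL, noggin at 100 ng/mL and EGF at 50 ng/mL. The 8C medium (7 libraries) combined R-Spondin 1 conditioned medium at 10%, EGF at 50 ng/mL and bFGF at 20 ng/mL with the small molecules GSK3iXV at 0.1 µM, LDN193189 at 0.2 µM, Pexmetinib at 1 µM, EPZ6438 at 2 µM and VPA at 500 µM. VPA blocks histone deacetylases, and EPZ6438 blocks EZH2, which methylates histone H3. The remaining organoid conditions were ENR with VPA and EPZ6438 added (ENR+VE, 3 libraries, doses not given in the sources used here) and 8C without VPA (8C-V, 6), without EPZ6438 (8C-E, 7), without both (8C-VE, 7) or without the GSK3 inhibitor, Pexmetinib, bFGF or EGF (8C-GSK3i, 8C-Pex, 8C-bFGF and 8C-EGF, 3 each). Crypts came from Normal mice and from mice on days 1, 2, 3 and 5 after a single irradiation of 12 Gy, without (IR) or with (IR+VE) daily gavage of 40 mg/kg VPA and 0.6 mg/kg EPZ6438, with 2 libraries in each group. The irradiated mice were C57BL/6 females 8 weeks old. The study counts its replicates as mice for some of these RNA-seq groups, but the sources used here do not tie each library to a mouse, and organoid libraries with the same replicate number may share one. Where libraries of a group share a mouse or culture, the p-values below measure a spread that may be technical.

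Paneth cells are secretory cells at the base of the small intestinal crypt, where they lie between the stem cells and release antimicrobial proteins into the lumen. They arise from secretory progenitors that depend on Atoh1, and their maturation depends on Wnt signalling, for which Fzd5 and Sox9 are needed. Lyz1 encodes lysozyme, which cuts the peptidoglycan of bacterial walls. Mmp7 encodes matrilysin, the protease that activates alpha-defensin precursors in mice. Ang4 encodes an antimicrobial ribonuclease of the angiogenin family, and Itln1 encodes intelectin 1, a lectin that binds microbial sugars and is also made by goblet cells. Mptx1 and Mptx2 encode mucosal pentraxins, relatives of the pentraxins of serum. RNA of the whole culture or crypt was sequenced, so fewer Paneth cells and less of a transcript in each of them cannot be told apart.

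The genes lie on 4 chromosomes in mm10, the build the reads were mapped to, and each is annotated as protein coding by GENCODE. Lyz1 spans chr10:117287797-117292868 on the minus strand, Mmp7 spans chr9:7692090-7699585 on the plus strand and Ang4 spans chr14:51763878-51773590 on the minus strand. Chromosome 1 carries Itln1 (chr1:171518122-171535294, minus strand), Mptx2 (chr1:173274382-173277777, minus strand) and Mptx1 (chr1:174330518-174332873, plus strand). Mptx1 and Mptx2 are 1052740 bases apart and face in opposite directions. Their longest open reading frames, taken from the annotated transcripts, are each 708 bases long and 92.5% identical, and the longest stretch that the transcripts share without a difference is 112 bases. Lyz1 has a close relative in Lyz2 (95.1% of 447 aligned bases identical, longest shared stretch 118 bases). Ang4 is 85.5 to 88.7% identical to Ang, Ang2, Ang5 and Ang6, with shared stretches of 31 to 79 bases. How the authors' counting treated reads that match more than one of these genes is not given in the sources used here, so the split between close relatives is uncertain.

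The promoters of Mptx1 and Mptx2 are shown because these close copies differed in level between libraries, and that of Mmp7 because its lowest correlations in the organoids were with this pair. For Mmp7 the first of its RefSeq starts is shown. The windows come from RefSeq (GRCm38.p6) and run 5′ to 3′ on the strand of the gene, from 250 bases before the annotated start of transcription to 50 bases after it. Capitals mark TATAAA and 4 forms of the motif of TCF/LEF factors, which act downstream of Wnt, on either strand. The forms searched were CTTTGAA, with its variant form CTTTGAT, and likewise the form CTTTGTA, with its variant form CTTTGTT. No 2 marked motifs overlap.
Mptx1, chr1:174330268-174330567, plus strand: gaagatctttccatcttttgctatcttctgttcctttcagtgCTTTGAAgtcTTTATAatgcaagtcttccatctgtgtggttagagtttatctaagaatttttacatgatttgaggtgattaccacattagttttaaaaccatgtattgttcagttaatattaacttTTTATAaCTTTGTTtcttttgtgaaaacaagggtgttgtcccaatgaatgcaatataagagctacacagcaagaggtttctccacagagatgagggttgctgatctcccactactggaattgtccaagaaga
Mptx2, chr1:173277707-173278006, minus strand: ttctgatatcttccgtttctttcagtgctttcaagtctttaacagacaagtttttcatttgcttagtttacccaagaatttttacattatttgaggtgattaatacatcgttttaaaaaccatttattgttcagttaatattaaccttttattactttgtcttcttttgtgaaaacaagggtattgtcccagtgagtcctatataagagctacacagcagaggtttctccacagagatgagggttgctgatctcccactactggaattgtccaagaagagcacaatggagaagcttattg
Mmp7, chr9:7691840-7692139, plus strand: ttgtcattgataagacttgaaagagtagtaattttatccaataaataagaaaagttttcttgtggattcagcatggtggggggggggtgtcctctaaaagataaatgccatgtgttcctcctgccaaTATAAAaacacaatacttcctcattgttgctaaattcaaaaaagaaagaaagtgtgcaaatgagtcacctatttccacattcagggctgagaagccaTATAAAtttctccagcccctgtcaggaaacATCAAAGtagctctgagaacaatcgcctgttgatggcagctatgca
The Mptx1 and Mptx2 promoters were 88.8% identical over 278 aligned bases. The Mptx1 window held a TCF/LEF motif 208 and 75 bases and TATAAA 198 and 82 bases before the start, and neither motif was found in the Mptx2 window. In the Mmp7 window, TATAAA lay 123 and 26 bases before the start, and a TCF/LEF motif began 4 bases after the first transcribed base. Of 32851 mouse promoter windows of 300 bases, 16.9% held one of the TCF/LEF motifs and 13.6% held TATAAA. The windows of Lyz1, Ang4 and Itln1 held neither. A match is a description of the letters only.

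**Figure D1:**
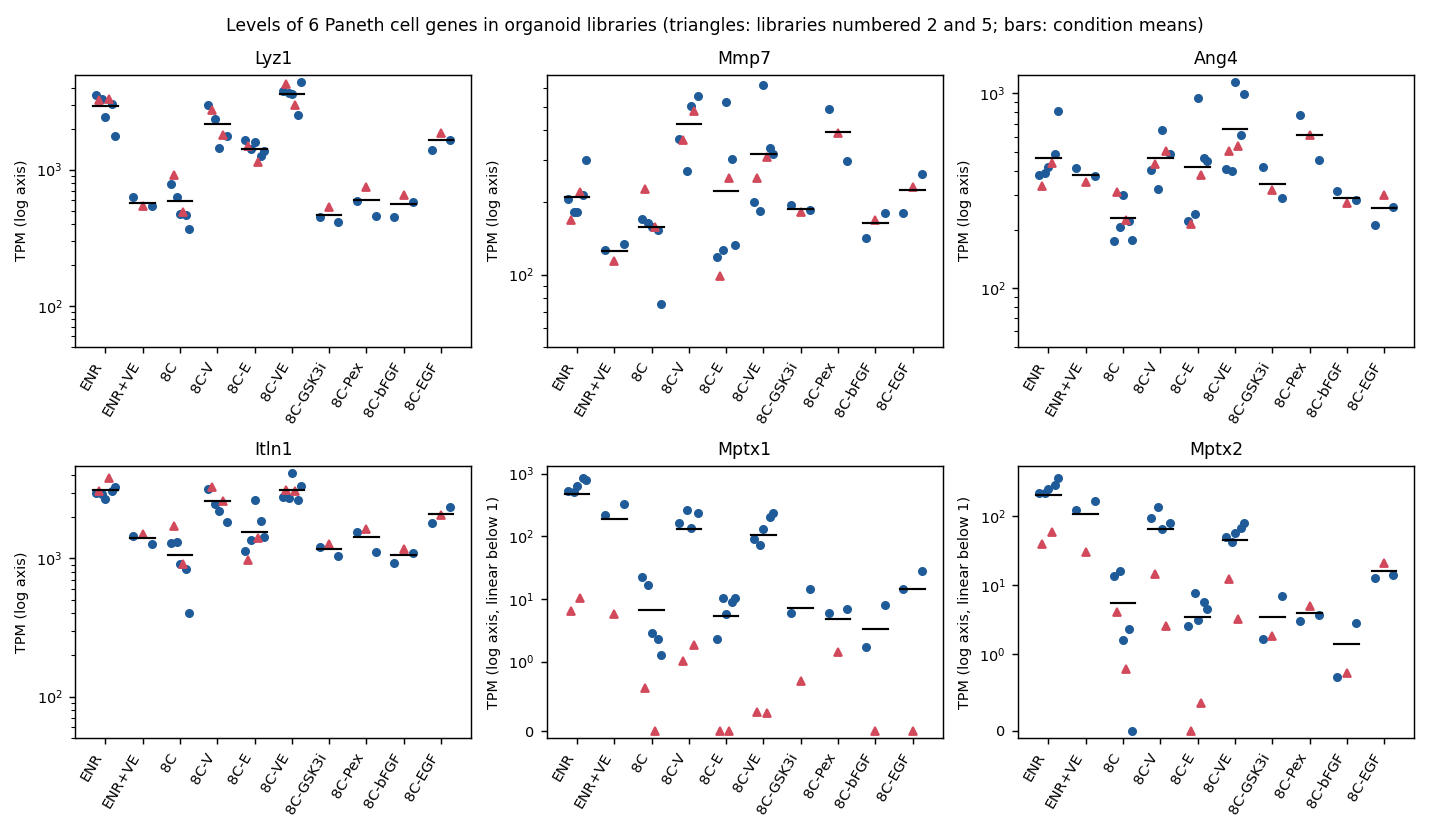
TPM of each gene in each organoid library, on logarithmic axes, by culture condition, with bars for the condition means and red triangles for libraries numbered 2 and 5. Lyz1 ran from condition means of 464 TPM (8C-GSK3i) to 3608 TPM (8C-VE), and the triangles lie at the bottom of every Mptx1 condition.

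Levels of the 6 genes were first set out over the organoid conditions, in TPM, which is scaled for transcript length. Itln1 and Lyz1 were the most abundant, with ENR means of 3129 ± 370 and 2940.5 ± 621 TPM (SD, n = 7). In the same medium Mptx1 reached 473 ± 341, Ang4 467 ± 159, Mmp7 210.3 ± 43.4 and Mptx2 203 ± 115 TPM. The order of the conditions differed among the genes. Lyz1 was highest in 8C-VE (3608 ± 670 TPM, n = 7), followed by ENR, 8C-V, 8C-EGF and 8C-E. The lower conditions were 8C-Pex, 8C, ENR+VE, 8C-bFGF and 8C-GSK3i (464 ± 60.8 TPM, n = 3). Neighbours in this order overlapped in their libraries, with one exception: the lowest 8C-E library (1141 TPM) was above the highest 8C-Pex library (748 TPM). Itln1 had the same upper 5 conditions, with ENR and 8C-VE nearly equal (3129 and 3121 TPM), and fell to 1055 ± 424 TPM in 8C. Its libraries overlapped between neighbours except between ENR+VE (lowest 1276 TPM) and 8C-GSK3i (highest 1274 TPM). Mmp7 was highest in 8C-V (423 ± 108 TPM, n = 6) and lowest in ENR+VE (125 ± 10.6 TPM, n = 3). Ang4 was highest in 8C-VE (655 ± 291 TPM) and lowest in 8C (231 ± 55.0 TPM). For Ang4 each condition overlapped with the next in the order, and for Mmp7 all did but 8C-GSK3i and 8C-bFGF. From the highest to the lowest condition the means spanned 7.77-fold for Lyz1, 3.39-fold for Mmp7, 2.84-fold for Ang4 and 2.97-fold for Itln1. Mptx1 and Mptx2 spanned 145-fold and 144-fold, from 473 and 203 TPM in ENR to 3.27 and 1.42 TPM in 8C-bFGF. The 8C-bFGF libraries held 1.74, 0 and 8.08 TPM of Mptx1 and 0.70, 0.75 and 2.80 TPM of Mptx2, so these spans rest on few low values. For both genes each condition overlapped with the next in the order.

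The 8C condition was compared with ENR to ask how the medium that the study developed differs from the standard one. Of the 6 genes, 4 were called lower in 8C (limma on log2(TPM + 1), Benjamini-Hochberg adjusted p under 0.05 and at least a 2-fold change), where 3.31% of all 12665 genes tested were called lower. Lyz1 ranged from 365 to 916 TPM in 8C with a median of 489 TPM, and from 1765 to 3500 TPM in ENR with a median of 3258 TPM. The libraries did not overlap, and the mean was 4.99-fold lower in 8C (log2 fold change -2.35 ± 0.20 SE, adjusted p = 1.13e-07). Itln1 ranged from 401 to 1715 TPM (median 915) in 8C and from 2688 to 3849 TPM (median 3059) in ENR, again without overlap (-1.68 ± 0.23, adjusted p = 2.7e-05). Mptx2 was 37.3-fold lower (0 to 16.0 TPM, median 2.31, against 39.2 to 355 TPM, median 220; -5.31 ± 0.64, adjusted p = 6.15e-06), and its libraries were also separate. Mptx1 was 71.3-fold lower in the mean (-5.55 ± 1.14, adjusted p = 0.00108), but its lowest ENR libraries, at 6.49 and 10.4 TPM, lay within the 8C range of 0 to 22.6 TPM, and it was not called with replicate numbers 1 to 3 only (-3.84, adjusted p = 0.161). Ang4 was separate between the conditions too (174 to 311 against 336 to 811 TPM, adjusted p = 0.000424), and its log2 fold change of -0.99 fell just short of the 2-fold limit. Mmp7, the protease of the group, overlapped between the media (75.5 to 227 against 168 to 298 TPM) and was not called (-0.45, 95% interval -0.85 to -0.04, adjusted p = 0.0827). The median log2 fold change of the 6 genes was -2.01, and that of all genes was 0.08.

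Without VPA and EPZ6438 the 8C medium still differs from ENR in its other factors, so 8C-VE against ENR sets the 2 agents aside. Lyz1, Mmp7, Ang4 and Itln1 were not called, with log2 fold changes of 0.31 (95% interval -0.03 to 0.65), 0.50 (0.04 to 0.97), 0.44 (-0.09 to 0.96) and -0.01 (-0.24 to 0.21). Mptx2 alone was called lower, where 2.07% of genes were. It ranged from 3.20 to 79.7 TPM (median 50.4) in 8C-VE, and the ENR libraries overlapped with it at their lower end (-2.30 ± 0.66, adjusted p = 0.0393). The call was lost with no minimum mean (adjusted p = 0.157) and with replicate numbers 1 to 3 only (adjusted p = 0.17) or 4 and above only (adjusted p = 0.234). Of other lists, 12 of 18 alpha-defensins and 3 of 6 enterocyte markers were called lower (enterocyte sums of 1070.5 to 3157 TPM against 1847 to 9996 TPM), and their part was not tested. In each of these 2 lists 1 tested gene had a mean under 1 TPM in 8C-VE and could only come out lower. Mptx1 had a like difference with a wide interval (-2.45, -5.64 to 0.74, adjusted p = 0.382). Same-numbered libraries of these conditions deviated together, and with the replicate number as a block Mptx1 was called as well (-2.45, adjusted p = 2.34e-05).

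**Figure D2:**
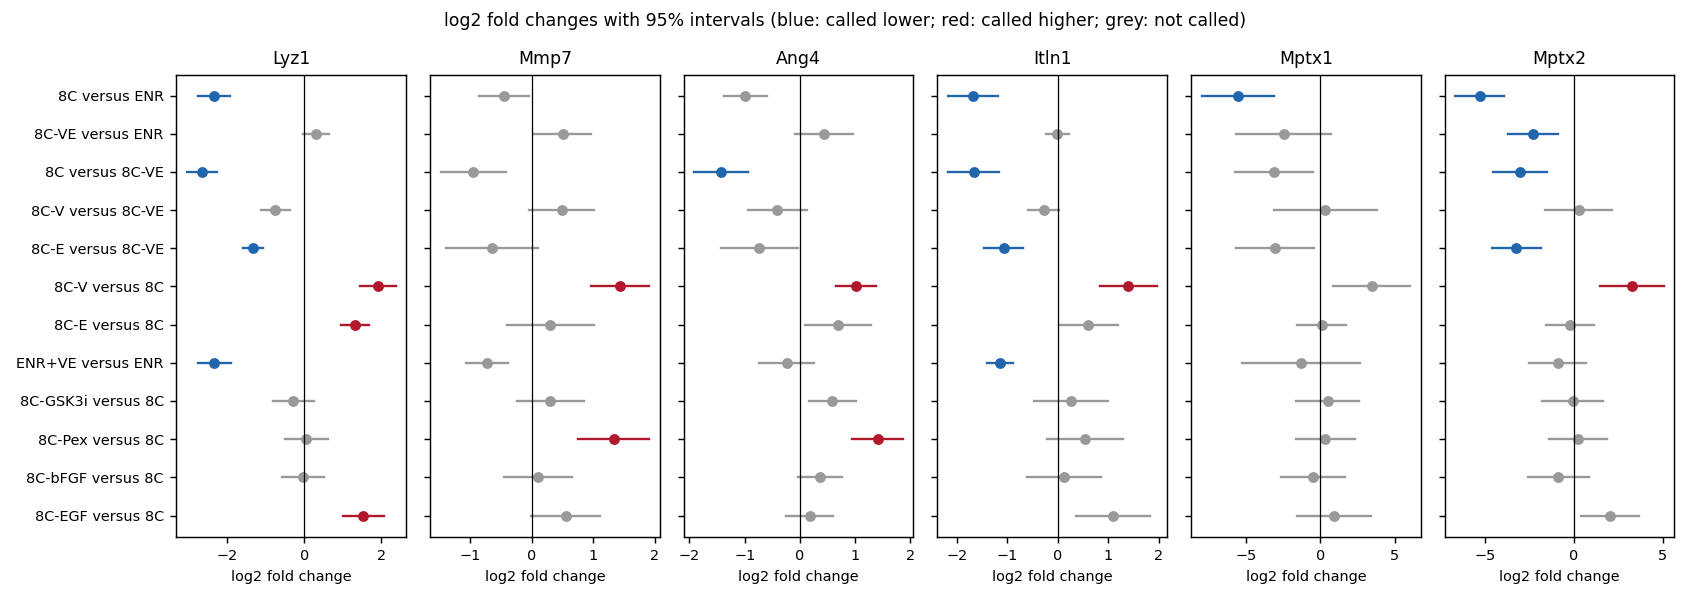
Log2 fold change of each gene (points) with its 95% interval (lines) in the 12 organoid comparisons, first condition relative to the second, with a separate horizontal scale for each gene. Blue marks genes called lower, red genes called higher and grey genes not called, and Lyz1 is blue in 8C versus ENR, 8C versus 8C-VE, 8C-E versus 8C-VE and ENR+VE versus ENR.

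Adding VPA and EPZ6438 together was examined in both media. In the 8C medium, 8C against 8C-VE, 4 of the 6 genes were called lower with the agents, where 1.62% of 12622 genes were. Lyz1 was 6.12-fold lower, since its 8C-VE libraries lay between 2533 and 4403 TPM (median 3669), all above those of 8C (-2.65 ± 0.19, adjusted p = 1.87e-08). Itln1 (2669 to 4166 TPM in 8C-VE, median 3068; -1.67 ± 0.24, adjusted p = 5.35e-05) and Ang4 (398 to 1138 TPM, median 537; -1.43 ± 0.23, adjusted p = 0.000182) were also lower in all 8C libraries. Mptx2 was lower with some overlap (-3.01 ± 0.72, adjusted p = 0.00516). With replicate numbers 1 to 3 only, Ang4 was under 2-fold (-0.96, adjusted p = 0.0226) and Mptx2 was not called (-1.54, adjusted p = 0.149). Mmp7 passed the adjusted p but not the 2-fold limit (-0.95 ± 0.25, adjusted p = 0.0108), and Mptx1 did not pass (-3.10 ± 1.23, adjusted p = 0.0814). In the ENR medium, where ENR+VE was compared with ENR, 2 of the 6 genes were called lower, against 0.738% of 12324 genes. The 3 ENR+VE libraries had 626, 540 and 545 TPM of Lyz1, 5.16-fold below the ENR mean, and no library came near the ENR range (-2.33 ± 0.20, adjusted p = 6.6e-06). Their Itln1 was 1454, 1500 and 1276 TPM, likewise below all ENR libraries (-1.14 ± 0.11, adjusted p = 2.23e-05). Mmp7 was 126, 113 and 135 TPM, also below the lowest ENR library, though the change was under 2-fold (-0.73 ± 0.16, adjusted p = 0.00648). Ang4 in ENR+VE was 412, 351 and 377 TPM, inside the ENR range (-0.24, 95% interval -0.73 to 0.25). Beside these, 16 of 18 alpha-defensins, 1 of 5 stem cell markers and 1 of 4 enteroendocrine markers were called lower in ENR+VE. Of the 18 alpha-defensins, 1 had a mean under 1 TPM in ENR+VE and could only come out lower. The enteroendocrine markers summed to 1081 to 1181 TPM against 587 to 846 TPM and the mesenchymal and muscle markers to 19.0 to 20.9 TPM against 5.52 to 13.2 TPM, without overlap, and their part was not tested. The effect of the agents in the 8C medium was then set against that in the ENR medium by an interaction term, and none of the 6 genes passed an adjusted p of 0.05, which 0.643% of 12591 genes did. Ang4 came nearest, with a further decrease of 1.19 ± 0.36 on the log2 scale in the 8C medium (unadjusted p = 0.00284, adjusted p = 0.198). With the replicate number as a block Ang4 did pass, which is a description, since not all of these conditions are paired by number. The difference for Lyz1 was -0.32 ± 0.30.

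The agents were next taken one at a time within the 8C medium. VPA alone, 8C-E against 8C-VE, was accompanied by lower Lyz1, Itln1 and Mptx2, 3 of 6 genes against a background of 1.07% called lower. Lyz1 lay between 1141 and 1640 TPM (median 1418) with VPA alone, below each 8C-VE library and above each 8C library (-1.33 ± 0.12, adjusted p = 2.9e-06). Itln1 ranged from 976 TPM to 2668.8 TPM (median 1408), and its highest library all but met the lowest 8C-VE library at 2669.3 TPM (-1.07 ± 0.18, adjusted p = 0.000921). Mptx2 was also lower with VPA alone (0 to 7.79 TPM, median 3.10; -3.23 ± 0.65, adjusted p = 0.0036), and with the replicate block Mptx1 was called too (-3.03, adjusted p = 0.00832). The Mptx2 call was lost with replicate numbers 1 to 3 only (adjusted p = 0.0919) or 4 and above only (adjusted p = 0.118), the second of which also ended the Itln1 call (-0.87, adjusted p = 0.062). Of 17 alpha-defensins tested, 16 were lower with VPA alone (median -2.44). A mean under 1 TPM in 8C-E was held by 2 of the 17, which could only come out lower. Markers of other cells were also called lower with VPA alone, 4 of 7 of goblet cells (median -1.27; sums of 2129 to 6223 TPM against 3619 to 8498 TPM), 3 of 5 of enterocytes (median -1.25) and 2 of 4 of enteroendocrine cells (median -1.36). Their part in these results was not tested. EPZ6438 alone, 8C-V against 8C-VE, gave no called gene among the 6, where 3.22% of genes were called in either direction. The largest difference of these was in Lyz1, which ranged from 1443 to 2974 TPM (median 2077) and passed the adjusted p without reaching 2-fold (-0.75 ± 0.18, adjusted p = 0.0181). Of 17 alpha-defensins tested, 6 were called lower (median -1.43), with sums of 2864 to 4439 TPM against 4301 to 10338 TPM. Of 4 enteroendocrine markers 2 were higher and 1 lower, 1 of 6 enterocyte markers was higher and 1 of 5 stem cell markers was lower. Of the enterocyte markers 1 had a mean under 1 TPM in 8C-VE. The part of these other lists was not tested.

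Leaving VPA out of the complete medium, 8C-V against 8C, was the omission with the most genes called higher, 5 of 6, where 1.11% of 12723 genes were called higher. It had 6 libraries, while the omissions of the GSK3 inhibitor, Pexmetinib, bFGF and EGF had 3 each, so these counts are not fully comparable. Lyz1 was 3.70-fold, Mmp7 2.68-fold, Itln1 2.47-fold and Ang4 2.03-fold higher in the mean, and for each of the 4 all 8C-V libraries were above all 8C libraries. Their log2 fold changes were 1.90 ± 0.22, 1.43 ± 0.22, 1.39 ± 0.26 and 1.02 ± 0.17, with adjusted p of 3.62e-05, 0.000442, 0.00248 and 0.000952. Mmp7 ranged from 269 to 556 TPM (median 425) without VPA. Mptx2 was also higher (2.55 to 137 TPM, median 72.4; 3.28 ± 0.84, adjusted p = 0.0187), with overlap, and was not called with no minimum mean (adjusted p = 0.0912). With replicate numbers 1 to 3 only, Ang4 (0.78), Mmp7 (0.83) and Mptx2 (2.46) were not called. Same-numbered libraries deviated together here too, and with the replicate block Ang4 was just under 2-fold (0.96, adjusted p = 0.000802) and Mptx1 was called (3.30, adjusted p = 0.0119). Of 15 alpha-defensins tested, 14 were called higher without VPA (median 2.18). Also called higher without VPA were 3 of 7 goblet cell markers (sums of 3955 to 7189 TPM against 2852 to 5006 TPM), 2 of 6 enterocyte markers (median 1.80), 1 of 2 tuft cell markers and 1 of 5 stem cell markers, and their part was not tested. Of the alpha-defensins and of the enterocyte markers, 1 each had a mean under 1 TPM in 8C and could only come out higher. Leaving EPZ6438 out, 8C-E against 8C, gave 1 called gene, Lyz1, which was higher (2.40-fold; 1.32 ± 0.17, adjusted p = 8.09e-05), against a background of 0.229%. With replicate numbers 1 to 3 only it was under 2-fold (0.98, adjusted p = 0.00638). Of 4 enteroendocrine markers 2 were called lower and 1 higher (sums of 234 to 463 TPM against 528 to 1322 TPM), 1 of 5 stem cell markers was higher and 1 of 2 mesenchymal and muscle markers was lower (3.88 to 7.65 TPM against 19.6 to 29.5 TPM), and their part was not tested. The share of all genes called lower here is not given, so the counts of lower markers are a description. A mean under 1 TPM was held by 1 enteroendocrine marker in 8C and 1 mesenchymal and muscle marker in 8C-E, and each could only move away from it. The interaction of VPA and EPZ6438 passed for none of the 6 genes (0.653% of 12556 genes passed), and the Lyz1 term was -0.57 ± 0.26 (unadjusted p = 0.0361, adjusted p = 1).

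The single omissions of the other factors each had 3 libraries. Without EGF, Lyz1 was 1399.6, 1855 and 1654 TPM, above each 8C library (1.53 ± 0.24, adjusted p = 0.023), and it was the single one of the 6 genes called, where 0.272% of 12849 genes were called higher. Itln1 was 1803, 2074 and 2370.1 TPM, each above the highest 8C library, and did not pass (1.09 ± 0.34, adjusted p = 0.203). In the same 3 libraries 11 of 16 tested alpha-defensins were called higher (2 of the 16 had a mean under 1 TPM in 8C), enterocyte markers summed to 371 to 405 TPM against 1239 to 3342 TPM in 8C, stem cell markers to 1852 to 2698 TPM against 525.8 to 1621 TPM and mesenchymal and muscle markers to 59.6 to 141 TPM against 19.6 to 29.5 TPM. Their part in the Lyz1 result was not tested. The Lyz1 call was lost when any 1 of the 3 libraries was left out (adjusted p 0.0928 to 0.16), and with no minimum mean (adjusted p = 0.162). Other settings called more of the 6 genes without EGF, 3 against 8C numbers 4 to 6 and 2 with all 10 organoid groups in one fit. Without Pexmetinib, a p38 and Tie2 kinase inhibitor, Lyz1 was 584, 748 and 455 TPM, within the 8C range (0.05, 95% interval -0.51 to 0.61). Instead Ang4 (778, 608 and 455 TPM; 1.41 ± 0.21, adjusted p = 0.0153) and Mmp7 (487, 389 and 296 TPM; 1.33 ± 0.27, adjusted p = 0.0498) were called higher, 2 of 6 against 0.334% of 12860 genes, with all 3 libraries above the 8C range. Goblet cell markers were called higher in 3 of 7 cases and summed to 5657 to 8249 TPM against 2852 to 5006 TPM in 8C. None of 4 enteroendocrine markers was called, and their sum was 1741 to 2251 TPM against 528 to 1322 TPM. Of 2 tuft cell markers 1 was called higher, and their sum was 18.3 to 29.9 TPM against 5.38 to 12.4 TPM. The part of these cells in the Ang4 and Mmp7 results was not tested. The Mmp7 call was lost when any 1 of the 3 libraries was left out (adjusted p 0.132 to 0.401), and the Ang4 call without replicate 1 (adjusted p = 0.143) or replicate 2 (adjusted p = 0.0591). With no minimum mean neither was called (adjusted p = 0.24 and 0.0928). Leaving out the GSK3 inhibitor or bFGF gave no call among the 6 genes by limma, where 0% and 0.00779% of all genes were called. At an unadjusted p under 0.05, Ang4 without the GSK3 inhibitor was the exception, at 420.3, 320.4 and 290.3 TPM (0.59, 95% interval 0.16 to 1.02, adjusted p = 0.725). The 8C libraries are shared by all these comparisons, and the comparisons are therefore not independent of each other.

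Mptx1 had a further pattern, by replicate number, which was noticed in the values and not sought by rule. In each of the 10 organoid conditions, the library or libraries numbered 2 and 5 had less Mptx1 than all the others. In ENR they held 6.49 and 10.4 TPM, while the other 5 held 529, 499, 641, 834 and 793 TPM. In 8C-VE they held 0.275 and 0.265 TPM, against 71.8 to 233 TPM in the other 5. In 8C-V they held 1.04 and 1.81 TPM, against 133 to 260 TPM. Mptx2 showed the same separation in 5 of the 10 conditions, with 39.2 and 58.7 TPM against 217 to 355 TPM in ENR. Within a library, Mptx1 exceeded Mptx2 in 0 of the 15 libraries numbered 2 or 5 and in 32 of the other 34. In the 18 crypt libraries, Mptx1 (0 to 12.99 TPM) was below Mptx2 (44.8 to 626 TPM) in all. For Lyz1 in ENR, libraries 2 and 5 held 3258 and 3305 TPM, among the others at 1765 to 3500 TPM. Left out of both groups, the libraries numbered 2 and 5 change some calls, in a fit added after these values were seen. These libraries were left out for their own Mptx1 and Mptx2, so the Mptx1 and Mptx2 values of that fit are no test of either gene. Without them the log2 fold change of Mptx1 was -4.34 in 8C against 8C-VE, -2.28 in 8C-VE against ENR and -4.10 in 8C-E against 8C-VE, where it was -3.10, -2.45 and -3.03 over all libraries and not called. Of the other 4 genes, Mmp7 was then called lower in 8C against 8C-VE (-1.11, adjusted p = 0.0365) and Ang4 in 8C against ENR (-1.17, adjusted p = 0.00153). Itln1 was under 2-fold in 8C-E against 8C-VE (-0.93), and the Pexmetinib and EGF calls were lost. The labels do not say what the replicate numbers stand for, and the source of this difference was not tested.

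**Figure D3:**
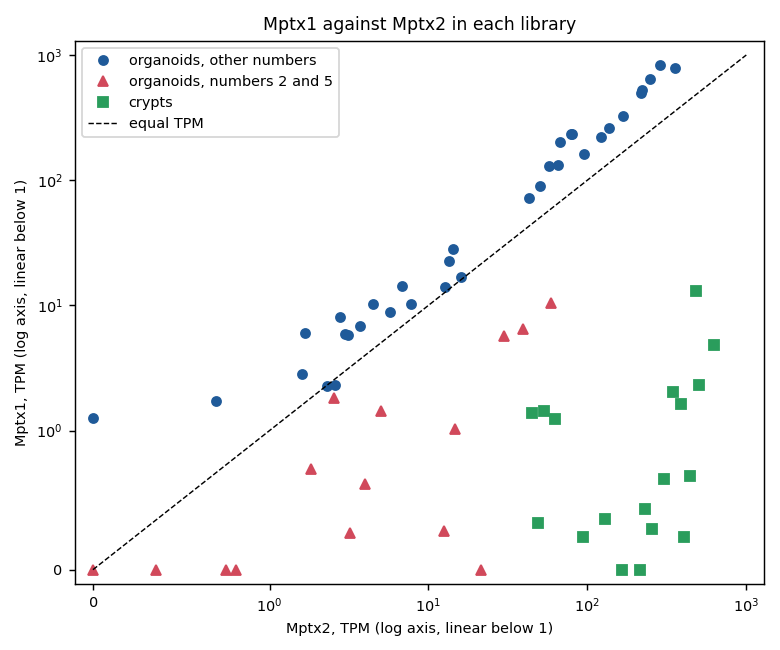
Mptx1 against Mptx2 in TPM in each of the 67 libraries, on logarithmic axes that are linear below 1 TPM, with a dashed line where both are equal. Organoid libraries numbered 2 and 5 (triangles) and crypt libraries (squares) lie on or below the line, and 32 of the other 34 organoid libraries (circles) lie above it.

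Likeness among the genes was described by Pearson's r of log2(TPM + 1) over the 49 organoid libraries, which share conditions and media. Lyz1 went with Itln1 (r = 0.88), Mmp7 with Ang4 (0.76) and Mptx1 with Mptx2 (0.89), while Mmp7 and Mptx1 had r = 0.20. In the 18 crypt libraries Ang4 went with Itln1 (0.94) and Lyz1 with Mptx2 (0.90), and Mmp7 had at most 0.45 with any of the others. Among 11834 other named genes, those most like Itln1 over the organoids were Defa24, Defa17 and Defa26 (r = 0.93, 0.91 and 0.91), all alpha-defensins. Lyz1 was most like Rbmx, Cd24a and Klhl23 (0.85, 0.84 and 0.84), of which Cd24a encodes a surface protein used to sort Paneth cells. Mmp7 was most like Lrrc26, Epn3 and Spink4 (0.80, 0.76 and 0.76), and Ang4 like Spink4, Bcas1 and Atoh1 (0.82, 0.80 and 0.78). Spink4 is a secreted protein of goblet cells. Mptx2 was most like Creb3l4, Nr1h3 and Aldh16a1 (0.83, 0.83 and 0.82). For Mptx1 the nearest were Capn9, Hpd and Tpsg1, with r of 0.71, 0.66 and 0.66. Within conditions, as deviations from the condition means, r was 0.82 to 0.84 for the 3 genes like Itln1, 0.69 to 0.78 for those like Mmp7, and 0.84, 0.69 and 0.41 for Spink4, Bcas1 and Atoh1 with Ang4. It was lower for the genes like Lyz1 (0.36 to 0.49), Mptx1 (0.24 to 0.36) and Mptx2 (0.28 to 0.44).

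Other genes of the Paneth lineage were counted from lists drawn up by function. Of 22 alpha-defensins in the table, 18 were tested in 8C against ENR and 18 were lower, where 3.31% of all genes were. Of these, 4 had a mean under 1 TPM in 8C and passed the filter on low values through ENR alone, so they could only come out lower, and the count is a description. Of 17 tested in 8C against 8C-VE, 17 were lower, 3 of them likewise under 1 TPM in 8C, where 1.62% of all genes were. In that comparison none of 8 other Paneth cell genes was lower and 1, Sntb1, was higher (median 0.04), from a mean under 1 TPM in 8C-VE, 2 of 7 regulators were lower (Atoh1 and Spdef; median -0.82), and none of 4 niche ligands was called. Among 7 regulators of the lineage, 4 were lower in 8C than in ENR and none higher, against the same 3.31%. Atoh1, which commits progenitors to the secretory fate, was lower in 8C than in ENR (4.55 against 12.2 TPM, -1.27 ± 0.20, adjusted p = 7.15e-05) and than in 8C-VE (-1.62 ± 0.20). Fzd5, a Wnt receptor, was lower than in ENR (-1.35 ± 0.22, adjusted p = 0.00014), as were Spdef (-1.17 ± 0.31) and Bhlha15 (-1.27 ± 0.35). Sox9 was not called (0.61 ± 0.19, adjusted p = 0.0214, under 2-fold), nor was Xbp1 (0.14 ± 0.08). Of 8 other Paneth cell genes tested, Clps (-1.81 ± 0.33) and Habp2 (-1.41 ± 0.32) were lower and Sntb1, with a mean under 1 TPM in ENR, was higher (2.45 ± 0.18) in 8C than in ENR. Of 4 niche ligands tested, the Notch ligand Dll1 was lower (-1.03 ± 0.16) and Wnt3 and Tgfa were not called (0.46 ± 0.17 and 0.62 ± 0.22). Goblet cell markers moved as well, since 4 of 7 were lower in 8C than in ENR, with a summed level of 2852 to 5006 TPM against 4163 to 6491 TPM. Of 6 enterocyte markers, 5 were lower (median log2 fold change -3.46; sums of 1239 to 3342 TPM against 1847 to 9996 TPM), and in 8C against 8C-VE 3 of 5 tested were, with 4 of 7 goblet cell markers. Of the 6 enterocyte markers tested against ENR, 1 had a mean under 1 TPM in 8C and could only come out lower. Of 5 stem cell markers 1 was lower, and their sum was 525.8 to 1621 TPM in 8C against 2054 to 3632 TPM in ENR, without overlap. The single mesenchymal and muscle marker tested was higher in 8C in both comparisons, with list sums of 19.6 to 29.5 TPM against 5.52 to 13.2 (ENR) and 6.13 to 10.7 TPM (8C-VE). Of 4 enteroendocrine markers 1 was lower in both, and 1 had a mean under 1 TPM in 8C. Of 2 tuft cell markers 1 was lower than in ENR. Ang4 and Itln1 are also made by goblet cells, and the part of all these other cells in the results of 8C against ENR and 8C-VE was not tested. In the organoids 8 immune cell markers summed to at most 15.9 TPM in the 8C and ENR libraries.

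In crypts the levels were read against Normal, whose 2 libraries differed from each other. Normal crypts had 2103 and 4975 TPM of Lyz1, 911 and 2619 TPM of Itln1, 264 and 712 TPM of Ang4, 180 and 322 TPM of Mmp7, 508 and 626 TPM of Mptx2 and 2.32 and 4.83 TPM of Mptx1. The second library was the higher for all 6. The alpha-defensins summed to 37024 and 77119 TPM and the enterocyte markers to 7885 and 3971 TPM in the same libraries, and their part in the results below was not tested. Levels were not compared between crypts and organoids, whose column sums are unlike: the mitochondrial gene mt-Atp8 alone averaged 141990 TPM in the crypts and 2.09 TPM in the organoids. With the mitochondrial genes removed and the rest rescaled, Itln1 on day 3 was 0.56 relative to Normal in place of -0.01, and was not called in either fit.

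**Figure D4:**
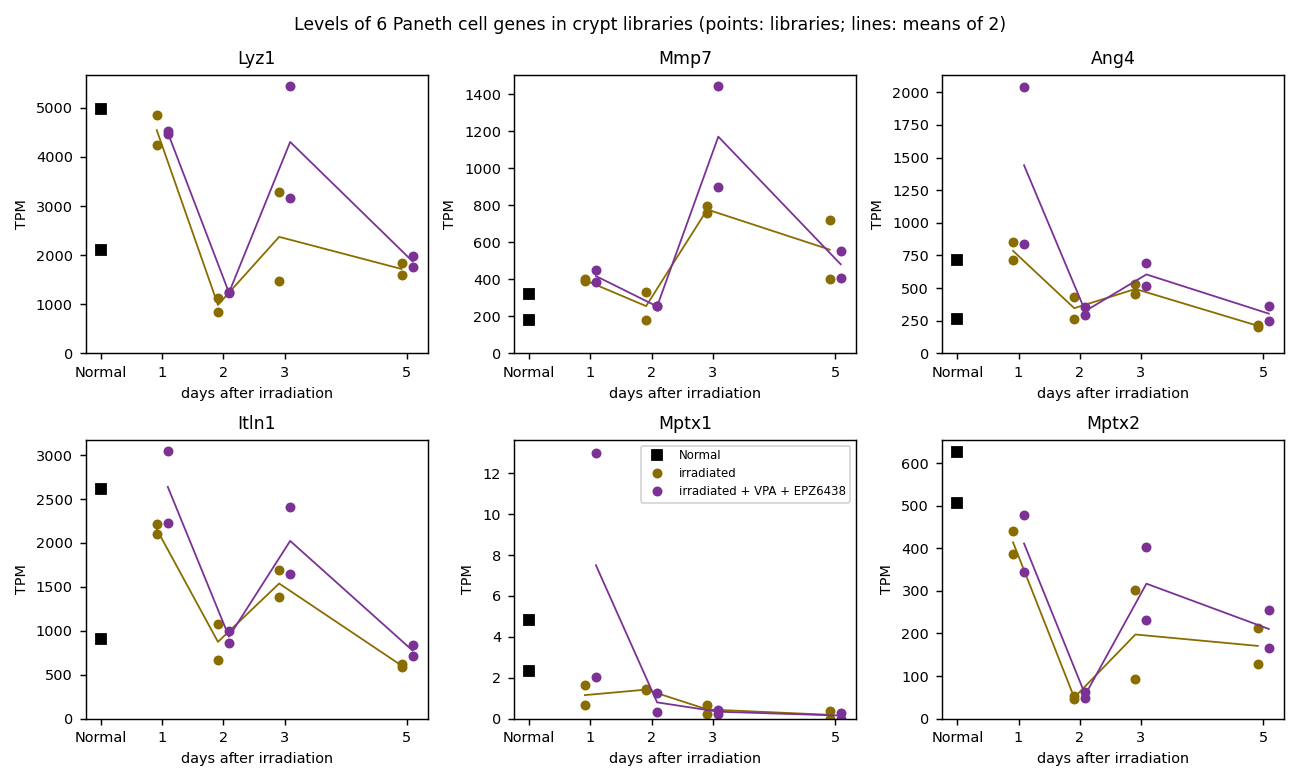
TPM of each gene in each crypt library (points) by day after irradiation, without (brown) and with (purple) VPA and EPZ6438, with lines through the means of 2 libraries and Normal crypts as black squares. Lyz1, Itln1 and Mptx2 are lowest on day 2 or day 5, and Mmp7 is highest on day 3.

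On day 1 after irradiation none of the 6 genes was called by limma, where 6.92% of 10802 genes were, and none had an unadjusted p under 0.05. By day 2, Lyz1 (845 and 1125 TPM) and Mptx2 (44.8 and 53.7 TPM) were called lower than Normal, 2 of 6 against 26.2% of all genes. Mptx2 was 11.5-fold below Normal (-3.50 ± 0.45, adjusted p = 8.7e-05). Lyz1 fell by 1.73 ± 0.39 on the log2 scale (adjusted p = 0.00271), a call that was lost with each library scaled to its 75th percentile (-0.95, adjusted p = 0.0797) or with no minimum mean (adjusted p = 0.0841). Mmp7 was 178 and 332 TPM, on either side of both Normal libraries at 180 and 322 TPM (0.01, 95% interval -0.72 to 0.75). All 19 tested alpha-defensins were lower on that day (median -2.06), as were 4 of 4 stem cell and 2 of 5 immune cell markers, while 3 of 6 enterocyte markers were higher, with sums of 19541 and 15353 TPM. The share of all genes called higher on day 2 is not given, so the enterocyte count is a description. Of the immune cell markers tested, 1 had a mean under 1 TPM on day 2. The median of all genes was -0.61 on day 2 and -1.03 on day 3, and 51.3% of genes were called lower on day 3. On day 3 Mmp7 was 759.5 and 794 TPM, above both Normal libraries, and was called higher (1.69 ± 0.35, adjusted p = 0.000543), where 2.56% of genes were. Mptx2 (93.4 and 302 TPM, -1.74 ± 0.45, adjusted p = 0.00347) and Mptx1 (0.236 and 0.655 TPM, -1.62 ± 0.54, adjusted p = 0.0141) were called lower. Mptx1 had a mean under 1 TPM on days 3 and 5 and passed the filter through groups where it was higher, Normal among them, so its lower values there are a description. Neither Mptx2 nor Mptx1 was called with each library scaled to its 75th percentile (-0.26 and -0.98), with quantile normalization (-0.87 and -0.72), with no minimum mean (adjusted p = 0.0568 and 0.132) or without IR_day3 replicate 1 (-0.90 and -1.41), and Mptx1 was not called without Normal replicate 2 (-1.22). Lyz1, Ang4 and Itln1 were not called, at 1467 and 3278 TPM, 453 and 532 TPM, and 1379 and 1697 TPM. Under the 75th percentile scaling Ang4 (1.66, adjusted p = 0.00597) and Itln1 (1.47, adjusted p = 0.00529) were called higher, while Lyz1 was called lower without Normal replicate 1 (-1.18) or IR_day3 replicate 2 (-1.14). All 7 lineage regulators were lower on day 3, Fzd5 the most (0.587 against 13.2 TPM, -3.15 ± 0.35), and of the niche ligands Dll1 (-2.95 ± 0.37) and Dll4 (-1.52 ± 0.26) were lower. Of the regulators 4 of 7, Fzd5 among them, and all 4 ligands tested had means under 1 TPM on day 3. They passed the filter through groups where they were higher, so these counts and values are a description. Also called lower were 4 of 6 enterocyte markers (median -2.47; 1116 and 3492 TPM against 3971 and 7885 TPM), 3 of 4 of stem cells (median -2.95), 3 of 7 of goblet cells, 2 of 3 of enteroendocrine cells, 4 of 5 of immune cells and the single mesenchymal one tested. The part of these cells in the day 3 results was not tested. Of the stem cell and immune cell markers tested, 1 each had a mean under 1 TPM on day 3.

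On day 5 Mmp7 remained higher than in Normal crypts (399 and 721 TPM; 1.15 ± 0.35, adjusted p = 0.0231), against a background of 10.2%. Itln1 was lower (582 and 625.2 TPM; -1.36 ± 0.38, adjusted p = 0.016), as was Mptx2 (129 and 213 TPM; -1.76 ± 0.45, adjusted p = 0.0117), 2 of the 5 genes other than Mptx1, where 5.61% of genes were called lower. Mptx1 was 0 and 0.366 TPM (-1.91 ± 0.54, adjusted p = 0.018), a call not counted here for its place under 1 TPM. Lyz1 (1586 and 1849 TPM) and Ang4 (205 and 216 TPM) were below both Normal libraries without passing (adjusted p = 0.0947 and 0.0988). Of 19 alpha-defensins 15 were lower. With no minimum mean none of the 4 calls, Mptx1 included, was kept (adjusted p 0.179 to 0.297), and in a fit of only these 2 groups Itln1 (adjusted p = 0.18) and Mmp7 (adjusted p = 0.0967) were lost. The day 5 calls rest on few libraries, since without any 1 of the 2 day 5 libraries, or without Normal replicate 2, 1 of the 4 calls was kept, that of Mptx2 without day 5 replicate 2 and that of Mmp7 otherwise. Under the 75th percentile scaling Mmp7 was not called (0.86) and Lyz1 (-1.21) and Ang4 (-1.33) were called lower. The immune cell markers summed to 4.19 and 4.94 TPM on day 5 and to 80.4 and 48.4 TPM in Normal crypts. Of 5 tested, 3 were called lower, and 3 had a mean under 1 TPM on day 5, so their count is a description. Called lower with them were 2 of 3 enteroendocrine markers, 1 of 6 enterocyte markers and the single mesenchymal marker, and 1 of 7 goblet cell markers was higher. Their part was not tested.

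VPA and EPZ6438 after irradiation gave no called difference among the 6 genes on days 1, 2, 3 and 5 by limma, where 0.00926%, 8.38%, 31.7% and 0.0185% of genes were called. At an unadjusted p under 0.05 there were 2, Mptx1 on day 1 and Lyz1 on day 3. Lyz1 on day 3 was 3164 and 5451 TPM with the agents against 1467 and 3278 TPM without (0.92, 95% interval 0.09 to 1.76, adjusted p = 0.0601). Leaving out IR_day3 replicate 2 gave 1.501 for Lyz1 (adjusted p = 0.00998) and 1.70 for Mptx2 (adjusted p = 0.00354), and leaving out IR+VE_day3 replicate 1 gave 1.31 for Lyz1 (adjusted p = 0.0361). Mmp7 on day 3 was 898 and 1443 TPM with the agents, above both libraries without (0.55, -0.18 to 1.29). The median of all genes tested was 0.69 and that of the 6 genes 0.46, and scaled to the 75th percentile the values of Lyz1, Mmp7, Ang4, Itln1 and Mptx2 turned negative (-0.24, -0.61, -0.87, -0.78 and -0.30). Of the lists, 4 of 8 other Paneth cell genes (Habp2 1.15, Nupr1 2.34, Fgfrl1 1.19 and Rnase1 1.29), 3 of 7 regulators (Sox9 2.40, Spdef 1.44 and Fzd5 1.17) and 2 of 4 niche ligands (Tgfa 1.298 and Dll1 1.05) were called higher on day 3 with the agents. Of these regulators and ligands, 4 of 7 and 4 of 4 tested had means under 1 TPM without the agents. They passed the filter through groups where they were higher, so their counts and values are a description. None of 19 alpha-defensins was called higher. Of all 10802 genes, 31.6% were called higher in that comparison. Of the stem, immune and tuft cell markers tested, 1 each had a mean under 1 TPM without the agents. Markers of other cells were called higher too, 2 of 7 of goblet cells, 2 of 3 of enteroendocrine cells (sums of 276.2 and 276.3 TPM against 110 and 134 TPM), 1 of 6 of enterocytes, 1 of 4 of stem cells, 1 of 5 of immune cells (23.7 and 32.5 TPM against 14.5 and 31.9 TPM), and the single tested marker each of tuft and of mesenchymal cells. Their part was not tested. Mptx1 on day 1 was 12.99 and 2.02 TPM with the agents against 1.62 and 0.674 TPM (1.63 ± 0.54, adjusted p = 0.286). Itln1 and Ang4 on day 5 were each above the untreated libraries in both treated ones (716 and 833 TPM, and 245 and 362 TPM), within intervals of -0.45 to 1.16 and -0.46 to 1.46. Whether the effect of the agents differed by day was tested across days 1, 2, 3 and 5, and none of the 6 genes passed (1.75% of genes did), with adjusted p from 0.199 for Mptx1 to 0.98 for Itln1.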

How the data were processed

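Bulk RNA-seq of 49 organoid and 18 crypt libraries was analysed. Per the labels and the study's methods, the authors trimmed reads (Trimmomatic 0.39), mapped them with STAR 2.7.3a to mm10 and counted them with featureCounts. The deposited values are TPM, and the step from counts to TPM is not given in the sources used here. TPM keeps no depth, so library depth is unknown and no counting interval is given. Organoid columns summed to 983801 to 988144 and crypt columns to 819346 to 910935.

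Values were tested as log2(TPM + 1) with limma 3.58.1 in R 4.3.3 (trend and robust empirical Bayes), organoid conditions in pairs and the 9 crypt groups in one fit. Genes averaging 1 TPM or more across the libraries being compared were tested, and p-values were adjusted over all of them by Benjamini-Hochberg. A gene was called at an adjusted p under 0.05 and at least a 2-fold change, and an interaction at an adjusted p under 0.05. Fold changes on this scale understate those of low genes. The named genes were the 6 markers, the 3 genes with the highest r to each, and the members of the lists of other Paneth cell genes, regulators and niche ligands that were called in 8C against ENR or 8C-VE, or on day 3 against Normal or with the agents, with up to 2 per list that were not. The markers and lists were chosen with earlier results of these data known. Scripts were tested on simulated data, where of 100 genes changed by 1.5 log2 units 93 were recovered in 8C against ENR, 86 in 8C-Pex against 8C, 85 in IR_day3 against Normal, 87 in the interaction of VPA with EPZ6438, 84 in that of the agents with the medium and 49 in that of the agents with the day. Of the unchanged genes 1, 5, 9, 10, 14 and 8 were called.

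Replicate numbers were taken to pair libraries where every pair's deviations correlated above 0.1, as in 8C-VE against ENR (lowest r 0.313), 8C-V against 8C-VE (0.69), 8C-E against 8C-VE (0.647) and 8C-V against 8C (0.106). Sequences and gene positions come from RefSeq and GENCODE. Pla2g2a was not analysed here.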

Additional observations from a re-analysis of the deposited data

Results flagged for a closer look

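Over 6 genes and the organoid conditions with 6 or 7 libraries, 30 sets of values were examined, and in 4 of them 1 library stood apart from the others by Dixon's test at the 95% level, which chance gives in about 1 of 20 sets. Mmp7 was 298 TPM in ENR replicate 7, where the next library had 221 TPM. Ang4 was 811 TPM in the same library, and the next had 490.5 TPM. In 8C-VE replicate 4, Mmp7 was 612 TPM and the next library had 337 TPM. In 8C-E replicate 4, Ang4 was 946 TPM and the next library had 466.4 TPM. All 4 are the highest of their group, and Mmp7 in 8C-E replicate 4 was the highest of its group as well, at 521 TPM.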

How the results depend on the processing

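Of 32 called differences of the 6 genes, 12 were called under every alternative, among them Lyz1 and Itln1 in 8C against ENR, 8C against 8C-VE, 8C-V against 8C and ENR+VE against ENR, Lyz1 in 8C-E against 8C-VE, Mptx2 in 8C against ENR and on day 2, and Mmp7 on day 3. Of 415 alternative values of the called differences 351 stayed called, 64 were lost and 0 changed direction. Counts of the 6 genes called are given below where they differ from the reported count by over 1.5 times, and smaller changes of a count are left out, for the block and for numbers 2 and 5 also. The changes in sign are of differences that were not called. TPM gives no depth and the 2 or 3 libraries in many groups limit the precision. Among the calls lost was Lyz1 on day 2, without a minimum mean and under scaling to the 75th percentile. Where a call was lost, the cause was not tested. Replicate numbers pair 4 of the comparisons. In the others the block result is a description only, and Ang4 then passed the interaction of the agents with the medium (-1.44, adjusted p = 0.0418). Where 1 group has 3 libraries, the block fit repeats the log2 fold changes of numbers 1 to 3 only. The 2 are not separate alternatives there, though both were counted. Same-numbered libraries did not deviate together in these comparisons (lowest r from -0.207 in ENR+VE against ENR to -0.393 in 8C-bFGF against 8C).

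With replicate numbers 1 to 3 only, the number of the 6 genes called became 0 for 8C-VE against ENR and 8C-E against 8C, 2 for 8C against 8C-VE and 8C-V against 8C and 1 for 8C-bFGF against 8C. With replicate numbers 1 to 3 only again, the log2 fold change turned in sign for Mmp7 0.0039 in 8C against ENR, Itln1 0.050 in 8C-V against 8C-VE, Itln1 -0.32, Mmp7 -0.69 and Mptx1 -1.40 in 8C-E against 8C, Ang4 0.043 in ENR+VE against ENR, Itln1 -0.29 and Mptx1 -0.63 in 8C-GSK3i against 8C, Itln1 -0.015, Lyz1 -0.40, Mptx1 -0.79 and Mptx2 -1.15 in 8C-Pex against 8C, Itln1 -0.44 and Mmp7 -0.18 in 8C-bFGF against 8C and Mptx1 -0.20 in 8C-EGF against 8C. With no minimum mean, the number of the 6 genes called became 0 for 8C-VE against ENR, 8C-Pex against 8C, 8C-EGF against 8C and IR_day5 against Normal and 1 for IR_day2 against Normal and IR_day3 against Normal. With replicate number fitted as a block, the number of the 6 genes called became 2 for 8C-VE against ENR, 1 for 8C-bFGF against 8C and VPA plus EPZ6438 by medium and 0 for 8C-EGF against 8C. With replicate number fitted as a block again, the log2 fold change turned in sign for Ang4 0.043 in ENR+VE against ENR, Itln1 -0.29 and Mptx1 -0.63 in 8C-GSK3i against 8C, Itln1 -0.015, Lyz1 -0.40, Mptx1 -0.79 and Mptx2 -1.15 in 8C-Pex against 8C, Itln1 -0.44 and Mmp7 -0.18 in 8C-bFGF against 8C and Mptx1 -0.20 in 8C-EGF against 8C. These repeat the values of numbers 1 to 3 only and are no separate result. Leaving out numbers 2 and 5, chosen on Mptx1 and Mptx2, the number of the 6 genes called became 0 for 8C-Pex against 8C and 8C-EGF against 8C. For 8C-VE against ENR the count is left out, since calls of Mptx1 and Mptx2 in that fit are no test. Leaving out numbers 2 and 5 again, the log2 fold change turned in sign for Itln1 0.047 in 8C-VE against ENR, Mptx2 0.23 in 8C-E against 8C and Lyz1 -0.028 and Mptx2 -0.091 in 8C-Pex against 8C. From replicate numbers 4 and above only, the number of the 6 genes called became 0 for 8C-VE against ENR, 1 for 8C-E against 8C-VE and 3 for 8C-E against 8C. From replicate numbers 4 and above only again, the log2 fold change turned in sign for Itln1 0.027 in 8C-VE against ENR, Mptx1 -0.25 and Mptx2 -0.36 in 8C-V against 8C-VE and Mptx2 0.93 in 8C-E against 8C. With no minimum fold change, the number of the 6 genes called became 1 for 8C-V against 8C-VE. With a pseudocount of 0.1 TPM, the number of the 6 genes called became 1 for 8C-Pex against 8C. With a pseudocount of 0.1 TPM again, the log2 fold change turned in sign for Mptx1 -0.14 in 8C-E against 8C, Mptx2 0.32 in 8C-GSK3i against 8C and Mptx2 0.026 in VPA by EPZ6438 in 8C medium. Under quantile normalization, the number of the 6 genes called became 1 for 8C-Pex against 8C and IR_day3 against Normal. Under quantile normalization again, the log2 fold change turned in sign for Mptx2 0.013 in 8C-GSK3i against 8C, Itln1 0.42 in IR_day3 against Normal, Mmp7 -0.14 in IR+VE_day1 against IR_day1 and Mmp7 -0.23 and Mptx2 -0.18 in IR+VE_day2 against IR_day2. Taking numbers 1 to 3 against numbers 4 to 6 of the larger group, the number of the 6 genes called became 3 for 8C-EGF against 8C. Taking numbers 1 to 3 against numbers 4 to 6 of the larger group again, the log2 fold change turned in sign for Mptx2 0.64 in 8C-GSK3i against 8C and Lyz1 0.21 and Mptx1 0.32 in 8C-bFGF against 8C. With a minimum mean of 5 TPM, the number of the 6 genes called became 1 for 8C-Pex against 8C. Under scaling to the 75th percentile, the number of the 6 genes called became 1 for 8C-Pex against 8C and IR_day2 against Normal. Under scaling to the 75th percentile again, the log2 fold change turned in sign for Mptx2 0.0069 in IR_day1 against Normal, Ang4 0.41 in IR_day2 against Normal, Itln1 1.47 and Lyz1 0.92 in IR_day3 against Normal, Itln1 -0.12 and Mmp7 -0.32 in IR+VE_day1 against IR_day1, Itln1 -0.51, Lyz1 -0.30, Mmp7 -0.58 and Mptx2 -0.46 in IR+VE_day2 against IR_day2 and Ang4 -0.87, Itln1 -0.78, Lyz1 -0.24, Mmp7 -0.61 and Mptx2 -0.30 in IR+VE_day3 against IR_day3. Without trend or robust moderation, the number of the 6 genes called became 1 for 8C-Pex against 8C. With all 10 organoid groups in one fit, the number of the 6 genes called became 2 for 8C-EGF against 8C. After removal of the mitochondrial genes, the log2 fold change turned in sign for Ang4 0.037 in IR_day2 against Normal, Itln1 0.56 and Lyz1 0.018 in IR_day3 against Normal, Mmp7 -0.12 in IR+VE_day1 against IR_day1 and Itln1 -0.052, Mmp7 -0.12 and Mptx2 -0.0066 in IR+VE_day2 against IR_day2. Fitting only the 2 groups compared, the number of the 6 genes called became 2 for IR_day5 against Normal. When each replicate of a group of 2 or 3 was left out in turn, the number called ranged from 0 to 1 for 8C-Pex against 8C, from 0 to 0 for 8C-EGF against 8C, from 0 to 1 for IR_day1 against Normal, from 1 to 4 for IR_day3 against Normal, from 1 to 5 for IR_day5 against Normal and from 0 to 2 for IR+VE_day3 against IR_day3. For ENR+VE against ENR, these omissions gave Mptx1 from -2.32 to 0.49. For 8C-GSK3i against 8C, these omissions gave Mptx1 from -0.24 to 1.34 and Mptx2 from -0.57 to 0.20. For 8C-Pex against 8C, these omissions gave Lyz1 from -0.13 to 0.23 and Mptx1 from -0.0013 to 0.85. For 8C-bFGF against 8C, these omissions gave Lyz1 from -0.15 to 0.12 and Mptx1 from -1.31 to 0.28. For 8C-EGF against 8C, these omissions gave Mptx1 from -0.075 to 2.36. For IR_day1 against Normal, these omissions gave Itln1 from -0.28 to 1.24 and Lyz1 from -0.13 to 1.11. For IR_day2 against Normal, these omissions gave Ang4 from -1.09 to 0.34 and Mmp7 from -0.43 to 0.46. For IR_day3 against Normal, these omissions gave Ang4 from -0.53 to 0.89, Itln1 from -0.78 to 0.75 and Lyz1 from -1.18 to 0.060. For IR+VE_day1 against IR_day1, these omissions gave Lyz1 from -0.11 to 0.085, Mmp7 from -0.034 to 0.18 and Mptx2 from -0.26 to 0.21. For IR+VE_day2 against IR_day2, these omissions gave Ang4 from -0.42 to 0.30, Itln1 from -0.21 to 0.47, Mmp7 from -0.39 to 0.51 and Mptx2 from -0.0040 to 0.35. For IR+VE_day3 against IR_day3, these omissions gave Mptx1 from -0.31 to 0.11. For IR+VE_day5 against IR_day5, these omissions gave Mmp7 from -0.60 to 0.25, Mptx1 from -0.27 to 0.18 and Mptx2 from -0.048 to 0.67.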
